A study of Mus musculus with 6 samples.

Results

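Transcription factors that set and keep the identity of macrophages were compared between wild type (WT) and progranulin knockout (PGRN KO) mouse macrophages. Progranulin, the product of Grn, is secreted and also works in lysosomes. The 9 genes were taken by name from the 54532 genes of the deposited table: Spi1, Cebpa, Cebpb, Maf, Gata6, Zeb2, Klf2, Klf4 and Bhlhe40. All 9 were found, and all 9 had a mean of at least 1 FPKM (fragments divided by gene model length and by library size) over the libraries and entered the test. According to the labels, the cells were recruited from the peritoneal cavity of C57BL/6J mice, plated at 2000000 per well, and given Candida albicans for 6 hours at 1 fungal cell per macrophage, and this holds for both genotypes, so that no unchallenged cells are compared. There were 3 WT libraries (replicates 1, 2 and 3) and 3 PGRN KO libraries (replicates 4, 5 and 6). The study describes the WT and the PGRN KO mice as coming from different suppliers, so that genotype and colony of origin cannot be told apart. Its text calls the sequenced cells bone marrow-derived, whereas the labels, followed here, call them peritoneal. It also gives a ratio of fungus to cells that differs from that of the labels, so that the dose is not settled. The labels give no age or sex and do not say whether replicates came from separate animals, so that p-values measure only the spread between these libraries, which may be technical.

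Macrophage identity is built in layers. PU.1 (Spi1) and the C/EBP factors open and hold the enhancers that all macrophages share, and C/EBP-beta is also induced by inflammatory stimuli. Factors such as Gata6 in the large macrophages of the peritoneal cavity add the program of one tissue, while c-Maf favours the resident, non-dividing state. Zeb2 holds tissue macrophages to their identity, Klf2 and Klf4 are zinc finger factors known to restrain inflammatory activation, and Bhlhe40 is a repressor known to act on Il10.

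The upstream sequences of 3 of the factors are shown because they differ in what the data below show: Cebpa had the largest difference of the 9, Cebpb is its more abundant relative, and Klf4 is the one whose upstream sequence holds the E-box, the motif of Bhlhe40. Each is the 250 bases before the start site of the RefSeq gene on GRCm38.p6, 5′ to 3′ on the strand of the gene, and RefSeq promoters were at hand for Cebpa, Cebpb, Zeb2, Klf2 and Klf4. Capitals mark the motif matches: TATAAA in Cebpa, from base -30 counted back from the start site, and CACGTG in Klf4, from base -182. Cebpa lies at chr7:35119043-35119292 on the plus strand, Cebpb at chr2:167688665-167688914 on the plus strand and Klf4 at chr4:55532476-55532725 on the minus strand.
Cebpa: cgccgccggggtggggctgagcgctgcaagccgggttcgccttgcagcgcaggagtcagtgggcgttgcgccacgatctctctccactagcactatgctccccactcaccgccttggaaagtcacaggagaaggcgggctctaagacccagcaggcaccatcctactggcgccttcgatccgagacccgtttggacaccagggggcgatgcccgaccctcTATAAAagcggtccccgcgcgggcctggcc
Cebpb: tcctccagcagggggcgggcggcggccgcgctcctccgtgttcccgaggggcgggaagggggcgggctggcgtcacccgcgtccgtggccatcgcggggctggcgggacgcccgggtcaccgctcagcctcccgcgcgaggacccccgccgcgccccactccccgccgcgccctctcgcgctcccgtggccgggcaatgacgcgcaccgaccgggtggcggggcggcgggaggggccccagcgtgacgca
Klf4: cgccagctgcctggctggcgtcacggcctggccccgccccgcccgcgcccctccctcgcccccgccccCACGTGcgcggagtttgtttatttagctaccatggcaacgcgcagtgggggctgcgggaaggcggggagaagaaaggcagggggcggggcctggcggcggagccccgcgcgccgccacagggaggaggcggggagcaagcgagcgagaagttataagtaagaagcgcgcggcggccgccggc

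Both strands were searched over these 250 bases and the 50 bases that follow, for GAGGAAGT (PU.1), TTGCGCAA (C/EBP), CACGTG (the E-box), AGATAA (for Gata6 and its relatives), GGGCGTGG (the GC box of Klf factors), TGANTCA (the AP-1 motif) and the interferon response motif. TATAAA was added after the sequences were read. No 2 matches overlapped. The Cebpa window held TATAAA alone, as did that of Cebpb, at base 22 after the start and so outside the bases shown. The Klf4 window held the E-box alone, and that of Klf2 held none. Of the 4 RefSeq promoters of Zeb2, promoters 2 and 3, which overlap, held the same GC box, promoter 4 held 2 AP-1 matches and promoter 1 held none. Among the 32851 RefSeq promoters of this length, 13.6% hold TATAAA, 7.15% the E-box, 5.33% the GC box and 7.81% the AP-1 motif. G and C made up 66.4% of the 250 bases in Cebpa, 81.6% in Cebpb and 74.0% in Klf4.

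The WT libraries held 15996786 to 17551619 counted fragments and the PGRN KO libraries 16521976 to 17400340. Grn, the targeted gene, had 323 to 337 FPKM in WT and 0 to 0.0167 in PGRN KO, so that the genotype labels of all 6 libraries hold. PGRN KO replicate 6 stood apart from replicates 4 and 5. Its Pearson correlation with them was 0.971 and 0.972 across tested genes, which are not independent replicates, against 0.992 between replicates 4 and 5. Its values ran higher for short genes and lower for long ones, so that results are given below with and without it. Macrophage markers were abundant, with 7 of 7 above 1 FPKM and summed levels of 7091 to 7423 FPKM in WT and 7235 to 9725 in PGRN KO. Most of that sum was Lyz2, with 5745 ± 98.2 FPKM in WT and 6666 ± 1274 in PGRN KO, and 8135 in replicate 6. Of the 7, Mertk rose and Csf1r fell (adjusted p 0.0064 and 0.0178 by limma), and the rest did not pass. Of 11 neutrophil markers, Ly6g, Elane and Cxcr2 were listed at 0 throughout, but the list summed to 68.3 to 73.5 FPKM in WT and 42.7 to 43.9 in PGRN KO. Most of that sum came from S100a8, which fell from 48.3 to 52.8 FPKM in WT to 21.2 to 25.6 in PGRN KO (adjusted p 0.00142 by limma), and Mmp8, with 20.2 ± 0.707 against 19.5 ± 2.43 FPKM. S100a9 averaged 0.0432 FPKM in WT and 0.182 in PGRN KO. Mpo, Camp, Ngp, Ltf and Retnlg averaged at most 0.199 FPKM in either genotype. Whether S100a8 and Mmp8 came from neutrophils, and the part of neutrophils in the results below, was not tested.

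A total of 8882 genes were tested with limma on log2(FPKM + 1), and the Benjamini-Hochberg adjustment ran over all of them, with calls made below 0.05. Of the 9 factors, 3 passed: Cebpa and Bhlhe40 fell in PGRN KO, and Maf rose. Over all tested genes 24.2% passed, 13.8% lower and 10.4% higher, so that 3 of 9 is near the background. On a TPM scale, on which every library has the same sum, 922 genes passed as higher and 608 as lower, in place of 921 and 1230. The fold changes of 7 of the 9 factors were below 0, with a median log2 fold change of -0.46 against -0.03 for all tested genes. The genotypes did not overlap for 7 of the 9, against 48.8% of all tested genes. Without PGRN KO replicate 6, 7 of the 9 passed, of which 6 were lower and Maf was higher, but in that fit 41.3% of all tested genes passed, 25.1% lower and 16.2% higher. The 95% interval is that of the difference between genotype means on this scale, from the limma standard error. The exact permutation test of a single gene over 3 against 3 libraries cannot give a p below 0.1.

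**Figure D1:**
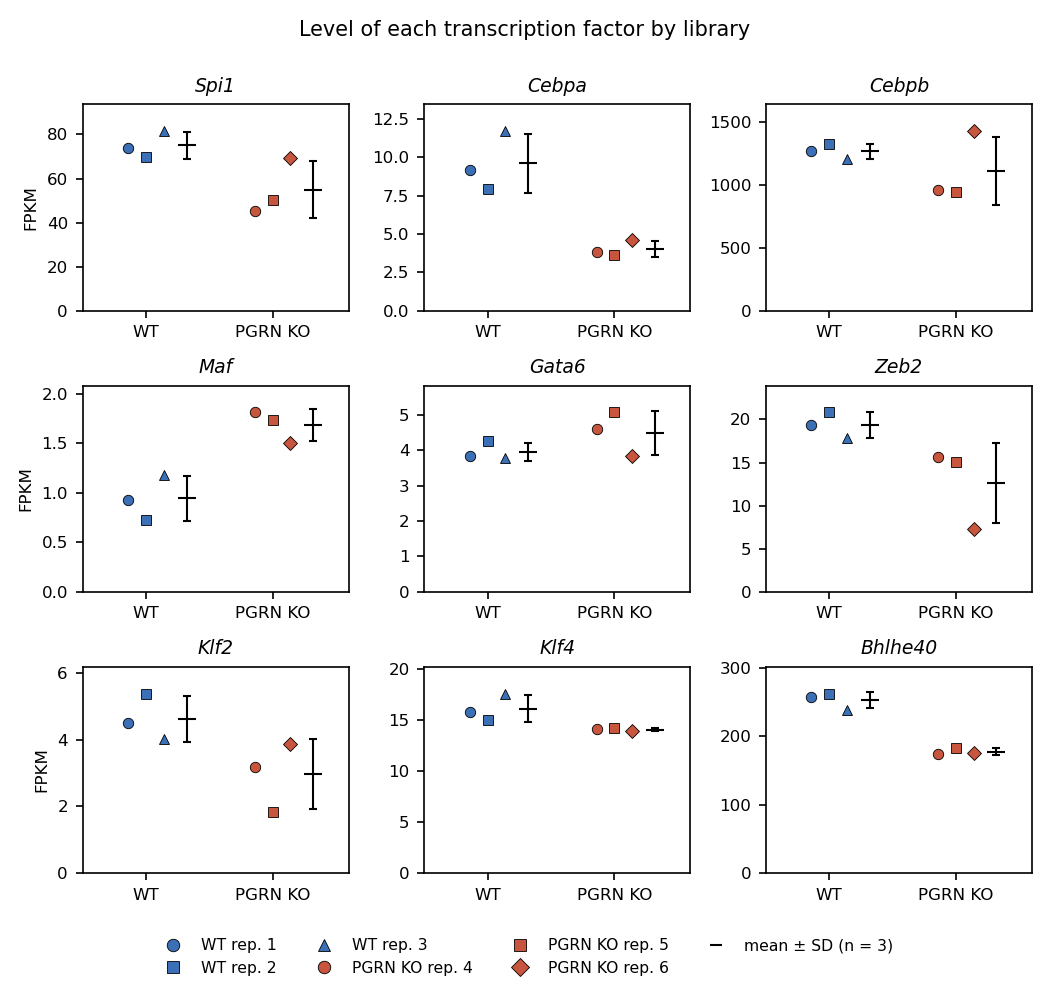
Levels of the 9 transcription factors in FPKM (each axis starts at 0) in the 3 WT (blue) and 3 PGRN KO (red) libraries, 1 point per library, with the mean and SD of each genotype beside them. Cebpa and Bhlhe40 lie lower in every PGRN KO library than in any WT library and Maf higher, and PGRN KO replicate 6 (diamond) lies away from the other PGRN KO libraries for Cebpb, Spi1 and Zeb2.

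Cebpa encodes C/EBP-alpha, a factor that commits progenitors to the myeloid lineage. Its gene (ENSMUSG00000034957) spans bases 35119293 to 35121928 of chromosome 7 on GRCm38. WT replicates 1, 2 and 3 gave 9.14, 7.95 and 11.7 FPKM, and PGRN KO replicates 4, 5 and 6 gave 3.83, 3.59 and 4.59. Every PGRN KO library lay below every WT library, and replicate 6 lay with the other 2. Cebpa fell to 41.8% of its WT mean, a log2 fold change of -1.07 ± 0.15 (SE, n = 3 each; adjusted p 0.0048 by limma). This call held in 18 of 18 alternative settings, with adjusted p from 0.000213 to 0.0286.

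Cebpb encodes C/EBP-beta and was the most abundant of the 9, with 99.5% of the tested genes below it in mean FPKM. The gene (chromosome 2, 167688915 to 167690418) reached 1269, 1326 and 1204 FPKM in WT, against 957, 946 and 1426 FPKM for PGRN KO replicates 4, 5 and 6. Replicates 4 and 5 lay below all WT libraries and replicate 6 above all of them, so that the genotypes overlapped. The log2 fold change was -0.22 (95% interval -0.64 to 0.20, limma adjusted p 0.4). Without replicate 6 it was -0.41 with an adjusted p of 0.00417. Its exons share 312 bases with Tmem189 on the opposite strand, and 19.6% of its 31-base words occur in other genes, so that its level is uncertain unless the counting used strand.

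Spi1 encodes PU.1, the factor on which the whole myeloid lineage depends. It lies on chromosome 2 (91082390 to 91115756) and had 73.8, 69.8 and 81.5 FPKM in WT. The PGRN KO libraries gave 45.4, 50.1 and 69.5 FPKM. The genotypes did not overlap, but replicate 6 came close to the lowest WT library. Spi1 did not pass (-0.46 ± 0.16 on the log2 scale, SE, adjusted p 0.0834 by limma), whereas without replicate 6 the value was -0.64 with 0.00246.

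Among the factors that add or keep a tissue program, Maf was the one that rose. Maf (chromosome 8, 115682942 to 115707794) encodes c-Maf and was the least abundant of the 9, with 0.928, 0.722 and 1.18 FPKM in WT, against 1.81, 1.73 and 1.5 in PGRN KO. These levels rested on 88 to 175 fragments per WT library and 213 to 270 per PGRN KO library. Every PGRN KO library lay above every WT library. The log2 fold change of 0.47 ± 0.12 (SE, limma adjusted p 0.0311) understates the change of a gene near 1 FPKM, since the mean rose to 178% of WT and the log2 fold change was 0.85 with a pseudocount of 0.01. The call was lost when WT replicate 1, WT replicate 2, PGRN KO replicate 4 or PGRN KO replicate 5 was left out (adjusted p 0.110, 0.109, 0.0827 and 0.0751), without a filter (0.0939) and on a TPM scale (0.0654). In bulk samples a change in the share of a cell type and a change of RNA per cell cannot be told apart, and markers of some other cells moved with genotype. Summed B cell markers were at 4.82 to 6.09 FPKM in WT and 19.1 to 24.2 in PGRN KO, and mast cell markers at 9.19 to 12.6 and 17.7 to 23.6 FPKM. The mast cell rise was in Tpsb2, Cma1, Cpa3 and Mcpt4. Hdc, with means of 8.43 and 8.48 FPKM, did not pass (adjusted p 0.956 by limma), and Kit was lower (0.345 and 0.21 FPKM). Summed T cell markers overlapped, at 2.26 to 3.40 and 3.18 to 5.37 FPKM, and their one tested marker, Trac, did not pass (adjusted p 0.534 by limma). Each of the 6 T cell markers had a higher mean in PGRN KO. Among those under the filter, Cd3d averaged 0.436 FPKM in WT and 0.933 in PGRN KO, Cd4 0.197 and 0.483, and Cd8a 0.251 and 0.484. The part of B cells, mast cells and T cells in the level of Maf was not tested.

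Gata6, the defining factor of large peritoneal macrophages, was transcribed in all 6 libraries. It lies on chromosome 18 (11052508 to 11085635) and gave 3.83, 4.26 and 3.78 FPKM in WT, against 4.59, 5.07 and 3.84 in PGRN KO. The genotypes overlapped through replicate 6. The log2 fold change was 0.15 (95% interval -0.12 to 0.41, limma adjusted p 0.367), and it was 0.23 with an adjusted p of 0.0539 without replicate 6. Mesothelial cells also transcribe Gata6, and of their markers Lrrn4 was listed at 0 in every library and Msln was at 0.103 FPKM in WT and 0.0705 in PGRN KO. The 10 markers of mesothelial cells and fibroblasts together summed to 1.19 to 1.25 FPKM in WT and 1.80 to 3.28 in PGRN KO. Most of that rise was in Dcn (means of 0.49 and 1.35 FPKM) and Col1a1 (0.227 and 0.548 FPKM). Krt18 and Upk1b went the other way, from 0.138 and 0.0569 FPKM in WT to 0 in PGRN KO. The part of mesothelial cells in the level of Gata6 was not tested.

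Zeb2 is the longest of the 9 gene models, at 19942 bases, and lies on chromosome 2 (44983632 to 45117395). WT gave 19.4, 20.8 and 17.8 FPKM. Of the PGRN KO libraries, replicates 4 and 5 gave 15.6 and 15.1 FPKM and replicate 6 gave 7.31. All PGRN KO libraries lay below all WT libraries, with replicate 6 far below the rest. The log2 fold change of -0.64 ± 0.26 (SE) did not pass (adjusted p 0.117 by limma). Without replicate 6 it was smaller, -0.31, and passed with 0.0182. Its antisense neighbour Zeb2os, which shares 653 exonic bases, had only 5 to 15 fragments per library.

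The Krüppel-like factors Klf2 and Klf4 both had lower means in PGRN KO. Klf2 (chromosome 8, 72319033 to 72321656) gave 4.5, 5.38 and 4.02 FPKM in WT, against 3.19, 1.83 and 3.88 in PGRN KO, on 64 to 147 fragments per library. Klf4 (chromosome 4, 55527143 to 55532466) gave 15.8, 15.0 and 17.6 FPKM in WT, against 14.1, 14.2 and 13.9 in PGRN KO. Neither gene overlapped between genotypes, and neither passed. The log2 fold change of Klf2 was -0.54 (95% interval -1.03 to -0.04, limma adjusted p 0.104), and without replicate 6 it was -0.70 with 0.0269. That of Klf4 was -0.19 (95% interval -0.40 to 0.02, limma adjusted p 0.166), and Klf4 passed in 0 of 18 alternatives.

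Bhlhe40 came next after Cebpb in abundance. The gene (ENSMUSG00000030103, chromosome 6, 108660629 to 108666925) gave 257, 262 and 239 FPKM in WT, against 174, 183 and 175 in PGRN KO. Replicate 6 lay between the other PGRN KO libraries, and all 3 lay well below WT. Bhlhe40 fell to 70.2% of WT, a log2 fold change of -0.51 ± 0.09 (SE, adjusted p 0.00929 by limma). The call was lost without WT replicate 1 or 2 (adjusted p 0.0673 and 0.0535) and held in the other 16 of 18 alternatives. Il10, a known target of repression by Bhlhe40, did not rise where its repressor was lower. It fell from 232 ± 56.8 to 77.2 ± 10.5 FPKM (SD, n = 3 each, adjusted p 0.0034 by limma), and the relation of the 2 genes was not tested.

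**Figure D2:**
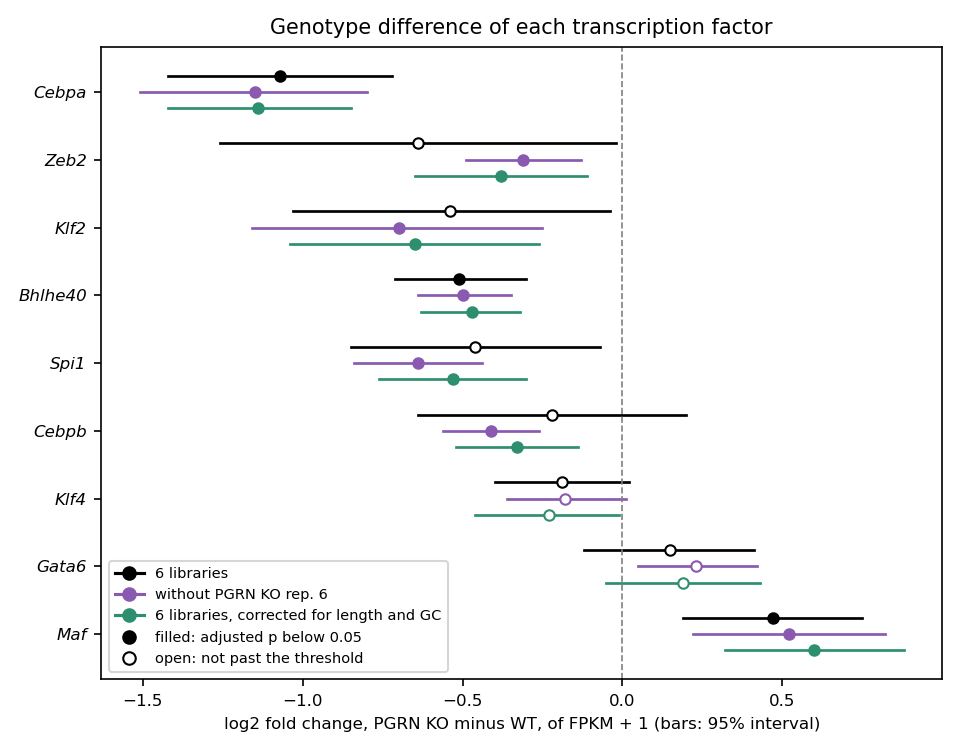
Log2 fold change (PGRN KO minus WT, on FPKM + 1) of each factor with its 95% interval, with all 6 libraries (black), without PGRN KO replicate 6 (purple) and after correction for gene length and GC content (green), where filled points passed the threshold over all tested genes. Cebpa and Bhlhe40 lie below 0 and Maf above 0 in all 3 versions, whereas Zeb2, Klf2, Spi1 and Cebpb pass only in the coloured ones.

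The 4 factors whose call turned on PGRN KO replicate 6 were shifted in that library in different directions. Relative to the mean of replicates 4 and 5, replicate 6 was higher by 0.58 for Cebpb (1504 bases), 0.50 for Klf2 (1847 bases) and 0.53 for Spi1 (2695 bases), all on the log2(FPKM + 1) scale. It was lower by a difference of -0.97 for Zeb2. The same difference had a median of 0.38 over the fifth of tested genes that are shortest, up to 1776 bases, and of -0.32 over the fifth that are longest, from 6950 bases. Bhlhe40 (4705 bases) and Klf4 (3049 bases) differed by -0.03 and -0.02. After a correction of each library for gene length and GC content, Spi1, Cebpb, Zeb2 and Klf2 passed with all 6 libraries kept (limma adjusted p 0.00677, 0.0194, 0.0391 and 0.0232), and 7 of the 9 factors passed in all, against 33.1% of all tested genes.

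**Figure D3:**
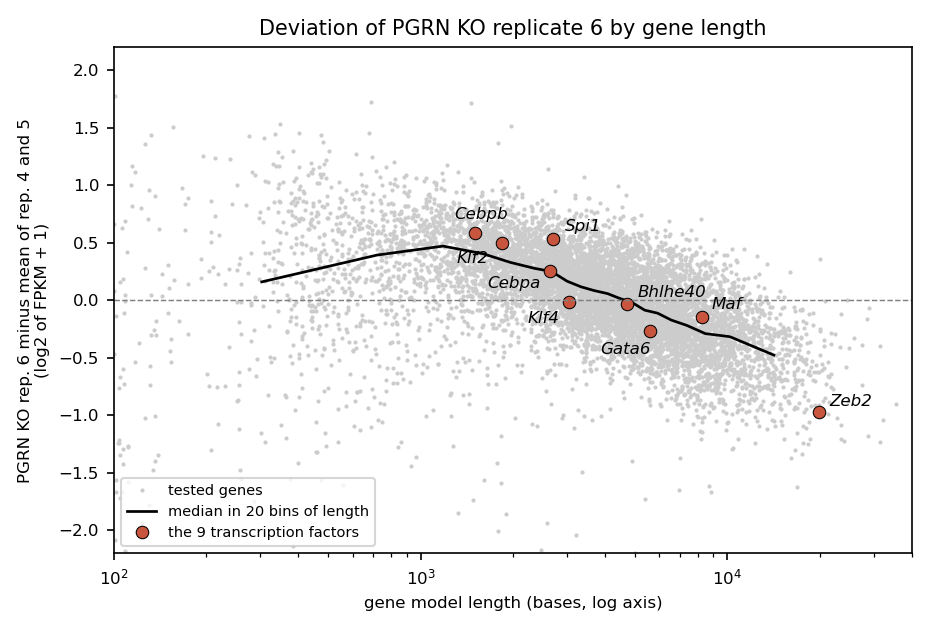
Difference between PGRN KO replicate 6 and the mean of PGRN KO replicates 4 and 5 (log2 of FPKM + 1) against gene model length (log axis) for the tested genes in range (grey, with 89 outside it), their running median (black) and the 9 factors (red). The median falls with length, Cebpb, Klf2 and Spi1 lie above 0 on the short side, and Zeb2 lies lowest at 19942 bases.

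The order of the factors by level, which FPKM allows because it is scaled to length, was much the same in both genotypes. In WT it ran from Cebpb (1266 ± 61.3 FPKM, SD, n = 3) through Bhlhe40, Spi1, Zeb2, Klf4, Cebpa, Klf2 and Gata6 to Maf (0.942 ± 0.228 FPKM). Klf2 and Gata6 were the only neighbours in this order whose libraries overlapped. In PGRN KO, Gata6 came before Cebpa and Klf2, with Gata6 at 4.5 ± 0.621 and Cebpa at 4.0 ± 0.521 FPKM. These 2 overlapped, as did Cebpa with Klf2. Klf4 came before Zeb2, at 14.1 ± 0.148 against 12.7 ± 4.64 FPKM, and these 2 also overlapped. That place of Zeb2 turned on replicate 6, whose values varied with gene length, at 7.31 FPKM against 15.6 and 15.1 in replicates 4 and 5.

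Ratios of 2 genes within a library were compared for 6 pairs on the log2(FPKM + 1) scale, where the 1 that is added leaves some dependence on scaling for genes of low level. Maf relative to Bhlhe40 differed by 0.98, Cebpa relative to Cebpb by -0.86, Zeb2 relative to Zeb1 by -0.63 and Bhlhe40 relative to Bhlhe41 by -0.54. For these 4 pairs the genotypes did not overlap, with an exact two-sided permutation p of 0.1, the smallest possible, and 0.14 after adjustment over the 7 pairs computed. The ratios use the same values as the single-gene tests and are not separate evidence. Zeb1 (means of 0.392 and 0.384 FPKM) and Bhlhe41 (log2 fold change 0.04) hardly differed, so that these ratios mostly repeat Zeb2 and Bhlhe40. Without PGRN KO replicate 6 the difference of Zeb2 to Zeb1 was -0.36, and with a pseudocount of 0.01 that of Maf to Bhlhe40 was 1.36. The ratio of Klf2 to Klf4 (difference -0.35, exact p 0.5) and that of Spi1 to Irf8 (difference 0.11, exact p 0.6) overlapped between genotypes.

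**Figure D4:**
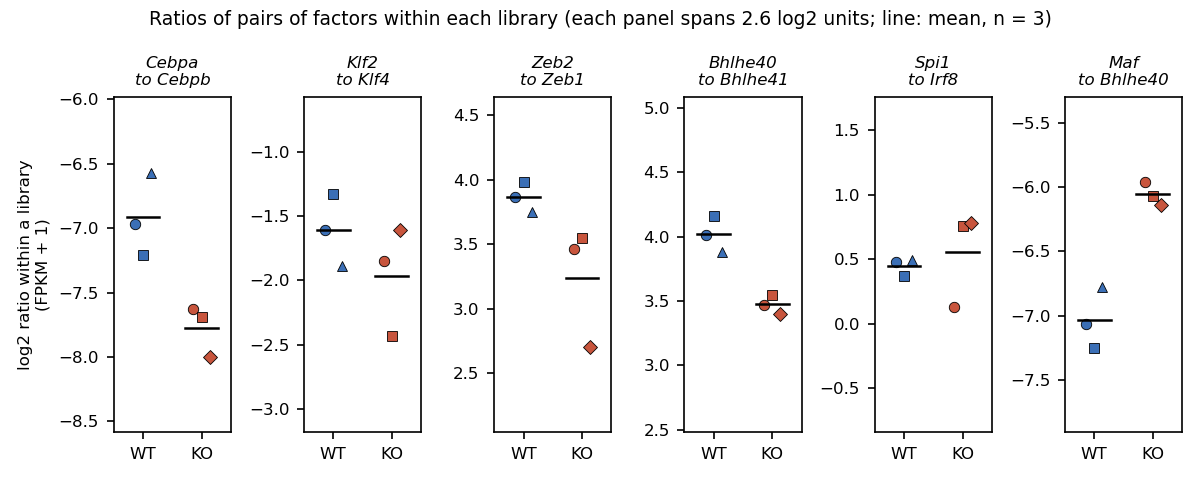
Log2 ratio of FPKM + 1 of 6 pairs of factors within each library (y axis, each panel spanning the same range of log2 units) for WT (blue) and PGRN KO (red, diamond for replicate 6), with the mean of each genotype as a line. The genotypes separate for Maf to Bhlhe40, Cebpa to Cebpb, Zeb2 to Zeb1 and Bhlhe40 to Bhlhe41, and overlap for Klf2 to Klf4 and Spi1 to Irf8.

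Other members of the same families were more often lower than higher in PGRN KO. Of 31 paralogues, 15 were expressed highly enough to be tested, 8 of these fell and none rose at an adjusted p of 0.05, and 10 fell without replicate 6. Of all tested genes, 13.8% fell and 10.4% rose, and 25.1% fell without replicate 6. The paralogues had a median log2 fold change of -0.56 against -0.03 for all tested genes, and -0.50 on a TPM scale. Among those that fell were Klf16 (from 6.92 ± 0.304 to 2.80 ± 0.273 FPKM), Cebpd (from 4.74 ± 0.228 to 1.92 ± 0.173 FPKM) and the small Maf gene Maff (from 147 ± 7.95 to 81.2 ± 4.42 FPKM). Cebpd, like Cebpb, encodes a C/EBP factor induced by inflammatory stimuli. Bhlhe41, the closest relative of Bhlhe40, did not pass (0.04 on the log2 scale, adjusted p 0.782 by limma). Zeb1 stayed under the filter, with means of 0.392 and 0.384 FPKM in WT and PGRN KO.

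The table gives a transcription factor family to 460 of the tested genes, the families of the 9 factors included. Of these, 103 fell and 19 rose, with a median log2 fold change of -0.19, and the share that passed, 26.5%, was near the 24.2% of all tested genes. Without replicate 6 the counts were 158 and 38 and the median was -0.12, and on a TPM scale 43 fell and 17 rose. Of 32 other factors of the macrophage lineage, 25 were tested, 9 fell and 2 rose, so that 44% passed against 24.2% of all tested genes. Id3, a partner of helix-loop-helix factors, fell from 17.2 ± 1.95 to 8.0 ± 1.48 FPKM, and Runx1, which acts with PU.1 in myeloid cells, from 11.8 ± 0.287 to 6.26 ± 0.759 FPKM. Nfe2l2, the regulator of antioxidant genes, and Id2 also fell (log2 fold change -0.74 and -0.61). The 2 that rose were Lmo2, an adaptor in complexes of hematopoietic factors, from 12.8 ± 1.26 to 24.8 ± 4.47 FPKM, and Irf5, a factor of inflammatory activation, from 35.5 ± 3.41 to 62.3 ± 9.65 FPKM.

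Genes typical of macrophage subsets moved in both directions. Of 20 genes typical of large peritoneal macrophages, 9 were tested, of which C4b and Icam2 rose and F10 and Fn1 fell. Of the 9, 44.4% passed, against 24.2% of all tested genes. Icam2, a surface marker of these cells, rose from 3.10 ± 0.163 to 5.10 ± 0.526 FPKM, and the complement gene C4b from 3.76 ± 0.249 to 8.67 ± 0.328 FPKM. The coagulation factor gene F10 fell from 451 ± 20.5 to 282 ± 44.4 FPKM. Adgre1, a surface marker of macrophages, did not pass (-0.08 on the log2 scale, adjusted p 0.591 by limma). The other 11 genes were under the filter. Among them were Timd4, at 0.149 FPKM in WT and 0.0258 in PGRN KO, and Aspa, at 0.01 and 0.0188. Others of the list were expressed and did not pass: Prg4 (14.2 and 12.7 FPKM), Cd9 (319 and 277) and F5 (1.71 and 1.88). The list was thus mixed, with some markers of large peritoneal macrophages near 0 and others present, while Gata6 was transcribed.

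Of 17 genes typical of small peritoneal or monocyte-derived macrophages, 14 were tested, 6 fell and 3 rose. Of the 14, 64.3% passed, against 24.2% of all tested genes. Ly6c2, which encodes a surface protein of inflammatory monocytes, fell from 12.0 ± 0.594 to 3.39 ± 0.348 FPKM. The MHC class II genes H2-Eb1 and H2-Aa fell from 151 ± 7.36 to 60.6 ± 15.7 and from 111 ± 2.69 to 59.8 ± 11.0 FPKM, and the lectin gene Clec10a from 2.65 ± 0.171 to 0.958 ± 0.105 FPKM. Plac8, Lyve1 and Chil3 rose, with log2 fold changes of 0.98, 0.89 and 0.82. Markers of other cells that carry MHC class II moved with genotype in both directions. Dendritic cell markers summed to 27.4 to 34.6 FPKM in WT and 15.9 to 19.3 in PGRN KO, and Ccr7, the one of 6 that was tested, fell from 28.9 ± 3.42 FPKM to 16.6 ± 1.93 (adjusted p 0.00775 by limma). Ccr7 made up most of that sum. Of the untested dendritic cell markers, Flt3 and Xcr1 had lower means in PGRN KO (0.12 against 0.32 FPKM and 0.388 against 1.16). Zbtb46 and Clec9a had higher ones (0.698 against 0.55 FPKM and 0.056 against 0.0361). Cd209a was listed at 0 in every library. The 3 tested markers of B cells, Cd79a, Cd79b and Ighm, rose. Their part in these levels was not tested.

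Of the 20 core myeloid genes, all tested, 25% passed, near the 24.2% of all tested genes. In this list 4 fell and Mertk rose, with a median log2 fold change of -0.10. Without replicate 6, 8 of the 20 fell, in a fit where 25.1% of all tested genes fell. Besides Il10, decreases were seen in Aif1 (from 2.26 ± 0.172 to 0.271 ± 0.158 FPKM), Cd33 and Csf1r, the receptor through which macrophages are maintained and a known target of PU.1, which fell from 32.5 ± 1.29 to 24.7 ± 0.905 FPKM. Mertk, a receptor for apoptotic cells, rose from 1.41 ± 0.229 to 3.24 ± 0.514 FPKM. Itgam, Cd68 and Lyz2 had log2 fold changes of -0.22, -0.05 and 0.20 (limma adjusted p 0.0848, 0.808 and 0.400).

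**Figure D5:**
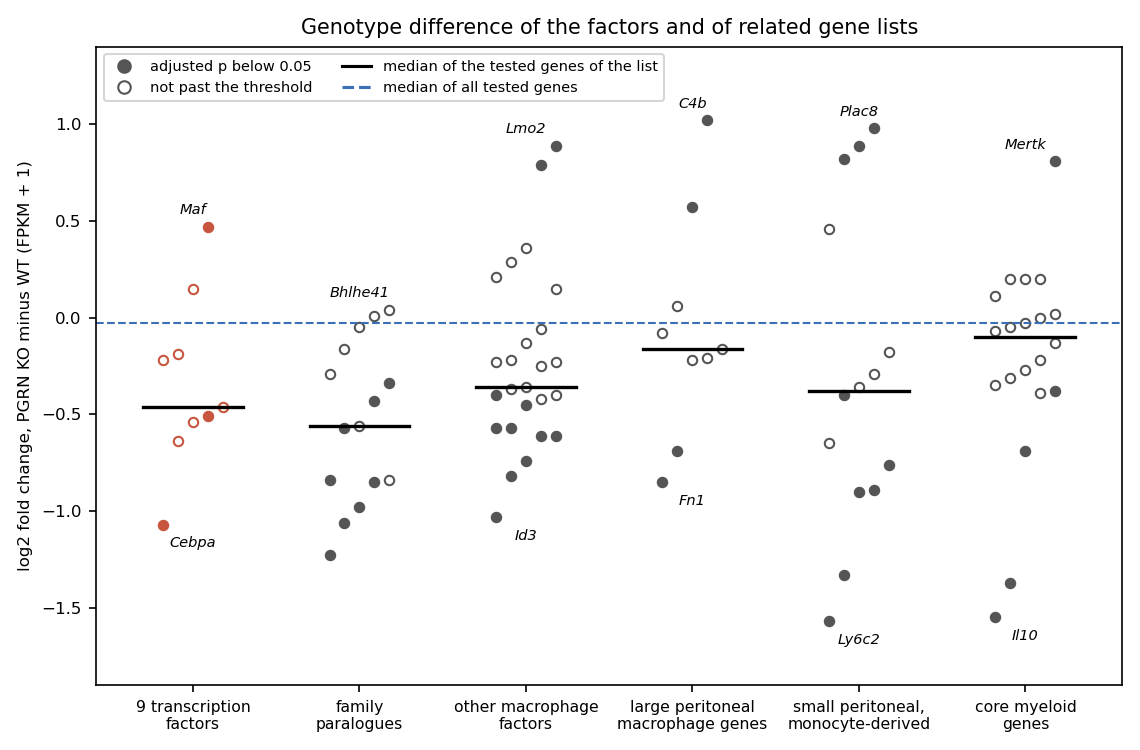
Log2 fold change (PGRN KO minus WT, on FPKM + 1) of the tested genes of the 9 factors (red) and of 5 related lists (grey), 1 point per gene, filled where the adjusted p was below 0.05, with the median of each list (black) and of all tested genes (dashed blue). The medians of the 9 factors, at -0.46, and of the family paralogues, at -0.56, lie lowest, and those of the core myeloid genes, at -0.10, and the large peritoneal macrophage genes, at -0.16, lie near that of all tested genes.

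Genes with the most similar profile were found for the 3 factors that passed, as the smallest root mean square difference between profiles of log2(FPKM + 1) over the 6 libraries, each centred on its own mean. For Cebpa these were Arg1, Vav1 and Mmp9, at 0.110, 0.120 and 0.134. For Maf they were Oas1b, AI987944 and Neat1, at 0.0339, 0.0548 and 0.0628, and for Bhlhe40 they included Antxr2 and Ndel1, at 0.0233 and 0.0290.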

How the data were processed

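RNA was sequenced from 3 WT and 3 PGRN KO libraries after 6 hours with C. albicans. The authors deposited FPKM per gene and library. The submitters' processing notes name HISAT2 2.0.5, featureCounts 1.5.0-p3, DESeq2 1.20.0 and the builds mm10 and GRCm38, whereas the methods of the study name another aligner version and HTSeq. Which annotation release was used, and whether counting used strand, is not stated. Of 54532 genes, 99.77% were found in GENCODE M21 on GRCm38, 98.33% of them with the same coordinates.

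FPKM times gene length gave whole fragments, within 0.001, for 100.0% of values above 0. Between any 2 libraries, chi-square per degree of freedom was at least 4.81, so that all 6 were counted as separate. Genes averaging 1 FPKM or more were tested as log2(FPKM + 1), because the deposited unit is FPKM, with limma 3.58.1 in R 4.3.3 (no covariates, variance trend, two-sided), and the test was tested on simulated data. Alternatives covered the pseudocount, the filter, scaling (TPM, quantile), the variance trend, sample quality weights, voom on the fragments, a loess correction for gene length and GC content (span 0.5), gene type and each library left out. The members, lists and tests were chosen with earlier results of these data known. Named genes were Grn, the members and the genes of the pairs, up to 4 of the largest passing changes in each direction per list, the 3 nearest profiles of passing members, predicted gene models left out, and markers or undetected genes where a sentence needs them. Adgre1, Itgam, Cd68 and Lyz2 were named after their values were seen. Results that need items withheld for evaluation are not reported here.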

Additional observations from a re-analysis of the deposited data

How the results depend on the processing

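No member changed sign in any alternative, and Cebpa kept its call in all of them. The correction for gene length and GC content with PGRN KO replicate 6 also left out was added after seeing the data, as the only such alternative. No paired analysis was possible because no replicate number occurs in both genotypes. Of all genes, 2151 passed (921 higher, 1230 lower), against 1366 (603 higher, 763 lower) with no filter, from more genes adjusted together, and 529 were higher with a mean FPKM of at least 5, from fewer genes tested. Sample quality weights, which gave PGRN KO replicate 6 a weight of 0.09, called 4225 (1757 higher, 2468 lower), 8 of the 9 members (2 higher, 6 lower), 22 of the other macrophage factors and 12 core myeloid genes. The correction for gene length and GC content called 7 members (6 lower) and 8 core myeloid genes. With replicate 6 also left out it called 3723 genes (1645 higher, 2078 lower), 8 members (2 higher, 6 lower), 17 other macrophage factors, 7 large peritoneal macrophage genes and 11 core myeloid genes. Lower genes numbered 608 against 922 higher on a TPM scale, and 756 against 1258 with voom on the recovered fragments. Maf was not called, so that 0 members were higher, without a filter and on the TPM scale, and was not tested with a mean FPKM of at least 5, where 5 paralogues passed. For the rest, the cause was not tested.

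With 1 library left out there were 713 (without WT replicate 1) to 3668 genes (without PGRN KO replicate 6), 331 to 1438 higher and 382 to 2230 lower. Members past the threshold numbered 1 to 7, with 0 to 1 higher and 1 to 6 lower, and paralogues 5 to 10, other macrophage factors 5 to 16, large peritoneal macrophage genes 2 to 7 and core myeloid genes 4 to 9. The difference in the ratio of Spi1 to Irf8, 0.109, ranged from -0.005 (without PGRN KO replicate 6) to 0.323. That of Zeb2 to Zeb1, -0.628, was -0.36 without PGRN KO replicate 6, and that of Klf2 to Klf4, -0.348, was -0.116 without replicate 5. In WT, Maf and Klf2 had the fewest fragments of the members, 88 to 175 and 134 to 147 per library, and the effect of depth on their calls was not tested.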
